A study of Mus musculus with 26 samples.

Results

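Aβ SA1-LTMRs and Aβ Field-LTMRs are fast-conducting touch neurons of the dorsal root ganglion, and RNA of the 3 libraries of the first was compared with RNA of the 3 libraries of the second. These 6 libraries are all those the labels give these names, out of 26 libraries of 8 sensory neuron subtypes (LTMR stands for low-threshold mechanoreceptor). Both groups were adult mice, aged 23 days or more after birth, with the genotype TrkCCreER;Retf(GFP), that is, a tamoxifen-inducible Cre at the locus of TrkC and a Ret allele carrying GFP. They differed in when tamoxifen was given. Aβ SA1-LTMRs had it on embryonic day E12.5 at 3 mg per day, and Aβ Field-LTMRs after birth, on postnatal days 13 and 14 (or 14 and 15) at 2 mg per day. These are the only 2 groups with these alleles, and the subtype, the day of labelling and the dose cannot be told apart. Each library pooled ganglia of several mice from all axial levels and several rounds of sorting. Nothing says that the pools came from separate animals, so the p-values measure only a spread between libraries, which was estimated over all 26. In such pools, fewer cells that express a gene and less of its RNA per cell cannot be told apart.

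As background, SA1 endings contact Merkel cells in touch domes and glabrous skin and keep firing while the skin is indented. Field endings wrap many hair follicles over a wide area of hairy skin and respond best to gentle stroking. TrkC, encoded by Ntrk3, is the receptor of neurotrophin-3, and Ret is the signalling receptor of the GDNF family of growth factors. CreER at the TrkC locus marks the cells that express TrkC while tamoxifen is present. How fast an ending adapts depends in part on its ion channels, and where it ends in skin and spinal cord depends on guidance and adhesion molecules.

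The 6 libraries held 10706522 to 60181509 counts on genes, and the shallowest was Field library 2. All 3 SA1 libraries had reads of 25 to 50 bases and all 3 Field libraries reads of 15 to 50 bases, so read length and subtype cannot be told apart within the pair. The mapping rate was 96.9% to 97.6% in the SA1 libraries and 86.1% to 94.3% in the Field libraries, and the deposited 5′ to 3′ bias was 1.16 to 1.22 against 0.82 to 1.10. Read length was added as a covariate, which the other subtypes make estimable, and the part of the other differences was not tested. Across genes, log2 levels correlated at r = 0.933 to 0.951 among SA1 libraries, 0.962 to 0.970 among Field libraries and 0.928 to 0.944 between the groups (9 pairs), so the ranges within SA1 and between the groups overlapped.

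Levels are CPM, which are counts scaled to library size, after TMM scaling, given in the order of library 1, 2 and 3 of each group. A gene was called when its Benjamini-Hochberg adjusted p by edgeR's quasi-likelihood test, over all genes, was under 0.05 and its log2 fold change, SA1 minus Field, was at least 1 in size. Of 17411 genes tested, 559 were called higher in SA1 (3.21%) and 986 higher in Field (5.66%). These shares are the ones to set beside each count of listed genes called below. The excess toward Field was largest among the lowest genes. Below 0.5 CPM in the higher group, 294 genes were called higher in Field and 29 in SA1, and at 50 to 500 CPM the counts were 126 and 78. In all, 184 of the 986 had no count at all in the SA1 libraries. Among the 9877 genes with a mean of at least 5 CPM in the higher group, a level chosen with the counts known, 332 were called higher in SA1 (3.36%) and 406 in Field (4.11%). Of these, 303 and 356 had no overlap between the 3 and 3 libraries. Among all 9877 genes, 11.7% lay without overlap higher in SA1 and 12.2% higher in Field. Call and overlap rest on the same values, so the second is no separate support.

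Scaling moved the balance of directions. Without normalization factors, which moved the median log2 fold change of all genes from -0.02 to 0.12, 759 genes were called higher in SA1 and 742 in Field. On deposited RPKM, log2(RPKM + 0.1) with limma gave 831 and 562. A fit on only these 6 libraries, with filter, scaling and spread all set by them and 14541 genes tested, gave 199 and 139. With the mean log2 CPM of the nociceptor marker lists as a covariate, an alternative added after seeing the data, the counts were 405 and 549. Genes of those lists, Calca and P2rx3 among them, are part of that covariate, so for them a smaller fold is partly built in. A core of 129 genes higher in SA1 and 77 higher in Field was called under all 14 other treatments of the counts (scaling, filter, 1 library left out, read length, glia, DESeq2 and the 6 libraries alone). Unless the text beside it says otherwise, each gene named from here on as higher or called belongs to that core, and its groups did not overlap. Among the 113 genes named, only those called were checked for overlap with other gene models. Of these, 40 overlap a gene model on the other strand and 2 overlap one on the same strand. Whether the counting used strand is not given in the sources used here.

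In the called genes, SA1 library 1 often lay nearest to Field. It was the lowest of its 3 libraries in 204 of the 332 more abundant genes called higher in SA1 (61.4%, against 35.3% of all genes at that level). It was the highest of the 3 in 205 of the 406 called higher in Field (50.5%, against 40.3%). Without it, 697 genes were called higher in SA1 and 1025 in Field. It also had the highest exonic share of reads (82.9%) and the lowest level of Xist, the RNA of the inactive X chromosome of females, which stood at 0.0306, 33.6 and 46.3 CPM in the SA1 libraries and 15.4, 46.2 and 15.9 CPM in the Field libraries. The part of sex or of exonic share in the calls was not tested.

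**Figure D1:**
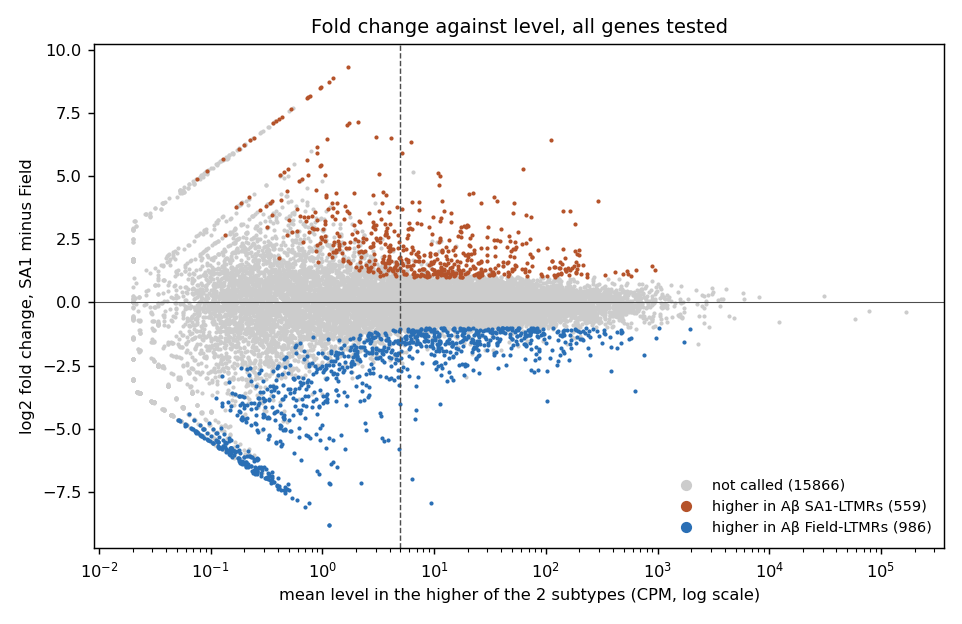
Log2 fold change (SA1 minus Field) of each of the 17411 genes tested against its mean level in the higher subtype (CPM, log scale), with the 559 genes called higher in SA1 and the 986 called higher in Field in colour. The dashed line marks 5 CPM. Many of the calls toward Field lie far left, where levels are under 0.5 CPM.

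Genes of large touch neurons were detected in both groups (gene positions are on build GRCm38). Ntrk3 (chromosome 7, 78175959 to 78738012) stood at 220.2, 164 and 197 CPM in the SA1 libraries and 297, 134 and 153 CPM in the Field libraries. The groups overlapped and the difference did not pass (log2 fold change -0.01, SE 0.32, adjusted p = 0.997). Ret (chromosome 6, 118151745 to 118197718) stood at 311, 275 and 236 CPM in SA1 and 525, 372 and 452 CPM in Field. Every Field library lay above every SA1 library, but the change was under the minimum fold used here (log2 fold change -0.71, SE 0.19, adjusted p = 0.0128). Nefh, the heavy neurofilament of large neurons, stood at 4122, 3745 and 3673 CPM against 4048, 2503 and 4003 CPM (log2 fold change 0.13, SE 0.22, adjusted p = 0.754). Slc17a6, the vesicular glutamate transporter VGLUT2, stood at 364, 455 and 372 CPM against 476, 451 and 416 CPM (log2 fold change -0.17, SE 0.18, adjusted p = 0.577), while Slc17a7, or VGLUT1, was higher in SA1 in every library, at 161, 210.1 and 164 CPM against 66.5, 58.3 and 71.4 CPM (log2 fold change 1.45, SE 0.28, adjusted p = 0.00142). Whrn, a stereocilia scaffold protein that also marks proprioceptors, the muscle afferents, stood at 0.306, 0.364 and 1.61 CPM in the SA1 libraries and 0.508, 2.03 and 0.481 CPM in the Field libraries, against a mean of 49.9 CPM in proprioceptors. In both groups it stood near 0. It is 1 of 10 listed proprioceptor markers, of which 3 were called higher in SA1 (Runx3, Pvalb and Esrrg, all described below) and 2 in Field. The list summed to 630.2 to 684 CPM in SA1 and 551 to 1085 CPM in Field, against a mean of 2082 CPM in proprioceptors, and its part in the results was not tested.

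Markers of other cells were detected in every library, at unequal levels. The 9 markers of nonpeptidergic nociceptors, the pain and itch neurons that carry the receptor Mrgprd, summed to 135 to 207 CPM in the SA1 libraries and 245 to 504 CPM in the Field libraries, against a mean of 5241 CPM in nonpeptidergic nociceptors themselves. The 9 markers of peptidergic nociceptors summed to 167 to 289.7 CPM and 405 to 653 CPM, against 6577 CPM in those cells. The 9 markers of Aβ RA-LTMRs, Ret among them, summed to 400 to 483 CPM in SA1 and 620 to 766 CPM in Field. Their mean sum was 1510 CPM in Aβ RA-LTMRs and 2129 CPM in nonpeptidergic nociceptors. Of these 9, 0 were called higher in SA1 and 3 in Field. The summed markers of C-LTMRs and of Aδ-LTMRs overlapped between the groups. Mrgprd itself stood at 8.83, 21 and 20.1 CPM in the SA1 libraries and 66.3, 83.1 and 18.2 CPM in the Field libraries. Field library 3 lay within the SA1 range, and the difference did not pass (log2 fold change -1.74, SE 0.59, adjusted p = 0.0544). Satellite glia genes summed to 1523 to 1778 CPM in SA1 and 1821 to 2688 CPM in Field, and Schwann cell genes to 557 to 754 and 784 to 1397 CPM. Of the 16 satellite glia genes tested, Glul, a glutamine synthetase, was called higher in Field (81.9, 79.2 and 62.2 CPM against 166, 283 and 162 CPM, log2 fold change -1.45, SE 0.22, adjusted p = 9.72e-05). Of the 11 Schwann cell genes tested, the myelin genes Mal (log2 fold change -1.06, adjusted p = 0.0138) and Prx (-2.19, adjusted p = 0.0465) were also called higher in Field, calls that held under 7 and 4 of the 14 other treatments. The call of Mal was lost without Field library 2 or SA1 library 1, and that of Prx without Field library 1 or 2 or SA1 library 1 or 2. Fibroblast genes summed to 28.8 to 45.4 CPM in SA1 and 19.2 to 30.7 CPM in Field. Of 9 tested, 1 was called higher in SA1 and 0 in Field. Endothelial genes summed to at most 19.7 CPM in any of the 6 libraries, macrophage genes to 8.74 CPM and erythroid genes to 1.25 CPM.

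**Figure D2:**
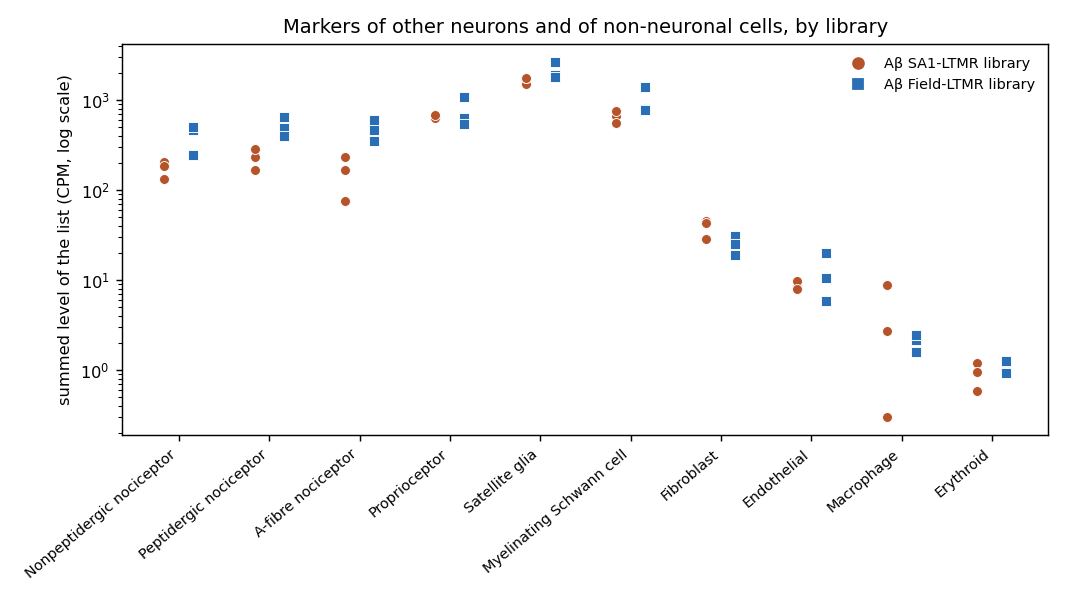
Summed level (CPM, log scale) of marker lists of other neurons and of non-neuronal cells in each of the 3 Aβ SA1-LTMR libraries (circles) and 3 Aβ Field-LTMR libraries (squares). The 3 nociceptor lists lie higher in every Field library than in every SA1 library, while endothelial, macrophage and erythroid genes stay low in both.

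Among transcription factors, Runx3 stood out by size. It encodes a Runt-domain factor known for setting the identity and spinal projection of TrkC-expressing sensory neurons. Runx3 (chromosome 4, 135120652 to 135177990) stood at 42.9, 74.4 and 68.3 CPM in the SA1 libraries and 0.531, 3.24 and 1.66 CPM in the Field libraries (log2 fold change 5.28, SE 0.74, adjusted p = 5.12e-05). Each SA1 library lay more than 10 times above each Field library. Of 59 listed sensory neuron factors tested, 6 were called higher in SA1 and 9 higher in Field, with a median log2 fold change of -0.34 against -0.02 over all genes.

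The promoters below are those of Runx3, of an acid-sensing channel gene and of a pair of neighbouring receptor genes that were all higher in SA1. They show the bases before the start of RefSeq transcripts on build GRCm38.p6, with the Runx core motif TGTGGT, or ACCACA on the other strand, in capitals.
Runx3, first of 2 windows, chr4:135120395-135120644, plus strand: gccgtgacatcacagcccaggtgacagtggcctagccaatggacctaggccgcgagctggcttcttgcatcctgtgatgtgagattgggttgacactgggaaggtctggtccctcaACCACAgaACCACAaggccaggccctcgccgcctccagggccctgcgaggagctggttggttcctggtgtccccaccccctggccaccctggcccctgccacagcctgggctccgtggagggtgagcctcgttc
Runx3, second of 2 windows, chr4:135152295-135152544, plus strand: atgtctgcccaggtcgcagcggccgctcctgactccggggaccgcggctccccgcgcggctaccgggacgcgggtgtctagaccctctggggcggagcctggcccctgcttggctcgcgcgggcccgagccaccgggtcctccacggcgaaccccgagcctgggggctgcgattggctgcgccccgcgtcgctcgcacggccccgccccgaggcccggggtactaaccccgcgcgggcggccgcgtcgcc
Asic3, chr5:24413201-24413450, plus strand: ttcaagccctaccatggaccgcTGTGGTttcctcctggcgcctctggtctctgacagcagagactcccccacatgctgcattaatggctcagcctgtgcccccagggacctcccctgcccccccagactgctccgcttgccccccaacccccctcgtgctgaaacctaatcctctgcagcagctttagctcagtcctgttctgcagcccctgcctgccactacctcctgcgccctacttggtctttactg
Npy1r, chr8:66697172-66697421, plus strand: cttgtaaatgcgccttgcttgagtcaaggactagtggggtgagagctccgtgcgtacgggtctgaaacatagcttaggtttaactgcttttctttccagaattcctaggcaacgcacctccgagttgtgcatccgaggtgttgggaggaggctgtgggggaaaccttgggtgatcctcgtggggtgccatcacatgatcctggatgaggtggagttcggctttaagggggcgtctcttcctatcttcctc
Npy5r, chr8:66688095-66688344, minus strand: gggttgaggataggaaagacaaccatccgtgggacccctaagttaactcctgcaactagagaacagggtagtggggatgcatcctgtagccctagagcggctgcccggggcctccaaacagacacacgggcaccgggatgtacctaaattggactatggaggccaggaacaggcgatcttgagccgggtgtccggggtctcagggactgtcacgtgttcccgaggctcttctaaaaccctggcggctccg
The first Runx3 window held the motif 2 times and the Asic3 window 1 time, and the second Runx3 window and the Npy1r and Npy5r windows did not hold these letters. A match is a description of the letters and not of binding. Of genes at 5 CPM or more with a promoter in the table, 12.53% held the motif in the 250 bases before a start. The share was 11.02% of 236 such genes called higher in SA1 and 12.2% of 287 called higher in Field, near that of all genes.

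Other factors moved less. Esrrg, an orphan nuclear receptor, stood at 85.9, 171 and 142 CPM in the SA1 libraries and 57.4, 57.1 and 40.3 CPM in the Field libraries (log2 fold change 1.37, SE 0.34, adjusted p = 0.00927), and the call was lost with read length as a covariate (log2 fold change 1.03, adjusted p = 0.169). Zfp521, a zinc finger factor most abundant in C-LTMRs among the 8 subtypes, stood at 31.0, 74.2 and 52.5 CPM against 27.4, 17.6 and 11.6 CPM (log2 fold change 1.47, SE 0.31, adjusted p = 0.00268). Its call was lost on the 6 libraries alone (adjusted p = 0.0629). In the other direction, Prdm12, a regulator needed for nociceptor development, stood at 16.6, 2.98 and 9.67 CPM in SA1 and 42.8, 49.5 and 32.8 CPM in Field (log2 fold change -2.09, SE 0.44, adjusted p = 0.00274), against a mean of 169.8 CPM in nonpeptidergic nociceptors. With nociceptor markers as a covariate it no longer passed (adjusted p = 0.161), nor with read length (0.162) or on the 6 libraries alone (0.0548). Etv5, an ETS factor, stood at 95.0, 27.6 and 25.3 CPM in the SA1 libraries and 174, 122 and 148 CPM in the Field libraries. SA1 library 1 lay between the other SA1 libraries and the Field libraries (log2 fold change -1.59, SE 0.33, adjusted p = 0.00218), and the call was lost with read length (adjusted p = 0.148) or on the 6 libraries alone (0.0959). Etv1, the ETS factor of proprioceptors, lay just past the minimum fold toward Field (log2 fold change -1.01, SE 0.26, adjusted p = 0.0116) and lost the call under 9 of the 14 treatments, among them without SA1 library 1 (-0.96) or 2 (-0.84) or Field library 1 (-0.98) or 2 (-0.89). Pou4f1, which encodes the pan-sensory factor Brn3a, stayed under the minimum fold (log2 fold change -0.66, SE 0.20, adjusted p = 0.0298), as did Isl1 (log2 fold change 0.61, SE 0.30, adjusted p = 0.19) and Maf (log2 fold change -0.34, SE 0.27, adjusted p = 0.444).

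Of the voltage-gated potassium channels of the Kv7 family, which open near the resting potential and hold down firing, Kcnq5 was higher in Field. Kcnq5 (chromosome 1, 21398403 to 21961942) stood at 55.5, 18.9 and 18.0 CPM in the SA1 libraries and 155, 97.6 and 91.5 CPM in the Field libraries (log2 fold change -1.90, SE 0.36, adjusted p = 0.00117). SA1 library 1 was highest of its group and still lay under every Field library. Kcnq3, of the same family, overlapped between the groups (log2 fold change 0.03, adjusted p = 0.981). Kcne2, an auxiliary subunit gene called higher in Field, had no count in the SA1 libraries and at most 0.577 CPM in a Field library, and lost the call without SA1 library 1 (adjusted p = 0.0511) or 3 (0.0529) or Field library 1 (0.0647).

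A-type channels, which pass a fast transient current, and their partners went in both directions. Kcna4, the transient Shaker subunit Kv1.4, was low but higher in Field, at 1.33, 2.10 and 0.970 CPM in SA1 and 11.2, 22.4 and 5.23 CPM in Field (log2 fold change -3.11, SE 0.51, adjusted p = 0.000235), while Kcna1 and Kcna2, Shaker subunits of large sensory neurons, did not pass (0.01, adjusted p = 0.991, and 0.46, adjusted p = 0.2). On log2(RPKM + 0.1), Kcna4 missed the threshold (adjusted p = 0.132). Of the partners of Kv4 channels, Kcnip1, a calcium-sensing subunit, stood at 43.3, 45.04 and 31.7 CPM in the SA1 libraries and 4.27, 8.92 and 3.35 CPM in the Field libraries (log2 fold change 2.93, SE 0.49, adjusted p = 0.000288). Dpp10 was also higher in SA1 (98.0, 279 and 185 CPM against 53.4, 93.8 and 37.4 CPM, log2 fold change 1.61, SE 0.29, adjusted p = 0.000614), although not on the 6 libraries alone (adjusted p = 0.0666), and its close relative Dpp6 was higher in Field (197, 116 and 115 CPM against 399, 244 and 357 CPM, log2 fold change -1.22, SE 0.23, adjusted p = 0.001). Dpp6 and Dpp10, which encode like subunits, thus differed in opposite directions. Kcnip1 overlaps Kcnmb1 on the other strand.

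Of 12 Kv2 genes and their silent subunits tested, 3 were called higher in Field and 1 in SA1, which is Kcns2 at a mean of 0.596 CPM. Its libraries overlapped, and its call held under 6 of the 14 other treatments and was lost without SA1 library 3 or any Field library. Kcng4, a silent subunit that modifies Kv2 channels, stood at 7.44, 2.83 and 5.09 CPM in the SA1 libraries and 26.1, 17.8 and 27.9 CPM in the Field libraries (log2 fold change -2.23, SE 0.42, adjusted p = 0.001), a call lost with read length as a covariate (adjusted p = 0.145). Kcns3, another silent subunit, stood at 44.9, 4.61 and 11.6 CPM against 62.1, 63.9 and 93.0 CPM (log2 fold change -1.84, SE 0.50, adjusted p = 0.0171). Its SA1 libraries were far apart, and the call was lost without SA1 library 2 (adjusted p = 0.0557), SA1 library 3 (0.0684) or Field library 3 (0.063). Of 11 calcium- and sodium-activated channel genes tested, 0 were called higher in SA1 and 5 in Field, but only Kcnt1 and Kcnmb1 exceeded 5 CPM. Kcnmb1, an auxiliary subunit of BK channels, stood at 2.23, 3.24 and 4.25 CPM against 10.9, 16.02 and 5.75 CPM (log2 fold change -1.72, SE 0.47, adjusted p = 0.0177) and at 175 CPM in nonpeptidergic nociceptors. Its call was lost under 8 of the 14 treatments, among them without SA1 library 1 (adjusted p = 0.068) or 2 (0.0538) or Field library 2 (0.0854), and its direction turned with read length as a covariate (0.06, adjusted p = 0.971). Kcnt1, the sodium-activated channel Slack, stood at 41.1, 18.2 and 20.0 CPM against 83.1, 54.9 and 60.5 CPM (log2 fold change -1.32, SE 0.23, adjusted p = 0.000478), with the call lost on the 6 libraries alone (adjusted p = 0.0634). Kcnj2, the inward rectifier Kir2.1 that holds the resting potential, went the other way, at 13.4, 15.7 and 12.1 CPM in SA1 and 1.45, 4.56 and 1.86 CPM in Field (log2 fold change 2.46, SE 0.46, adjusted p = 0.000879).

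Of 4 acid-sensing channels, which are opened by protons, Asic1 and Asic3 were higher in SA1. Asic1 (chromosome 15, 99670368 to 99701130) stood at 124, 231 and 197 CPM in the SA1 libraries and 54.8, 31.5 and 48.1 CPM in the Field libraries (log2 fold change 2.03, SE 0.28, adjusted p = 3.08e-05). Asic3, whose promoter is printed above (chromosome 5, 24413392 to 24417835), stood at 163, 248 and 181 CPM in the SA1 libraries and 63.7, 51.1 and 44.2 CPM in the Field libraries (log2 fold change 1.90, SE 0.34, adjusted p = 0.000632). For both genes every SA1 library was at least 2 times as high as every Field library. Asic2 went toward Field by just the minimum fold (29.8, 18.7 and 16.6 CPM against 43.6, 49.7 and 38.3 CPM, log2 fold change -1.01, SE 0.18, adjusted p = 0.000626), and fell under it without normalization factors (-0.84) and without Field library 2 (-0.92), SA1 library 2 (-0.89) or SA1 library 3 (-0.85).

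Channels of mechanotransduction itself gave 1 call. Of 19 listed genes tested, 0 were called higher in SA1 and 1 in Field, which is Tmem63a at a mean of 6.54 CPM (log2 fold change -1.26, adjusted p = 0.0129), a call lost under 5 of the 14 treatments, among them without SA1 library 3 (-0.84) or Field library 2 (-1.10). Piezo2, the main channel of touch in mammals, stood at 645, 432 and 433 CPM in the SA1 libraries and 1064, 598 and 554 CPM in the Field libraries. Field library 1 was highest, SA1 library 1 lay above the other 2 Field libraries, and the difference did not pass (log2 fold change -0.55, SE 0.23, adjusted p = 0.117). Of 20 TRP channels, Trpc5 was higher in SA1 (2.81, 16.6 and 15.5 CPM against 1.43, 0.710 and 1.09 CPM, log2 fold change 3.36, SE 0.53, adjusted p = 0.000145), with SA1 library 1 well below the other 2. Trpa1, the irritant receptor of nociceptors, was higher in Field (1.79, 2.53 and 5.77 CPM against 13.6, 20.2 and 10.3 CPM, log2 fold change -2.10, SE 0.50, adjusted p = 0.00674). It was at a mean of 196 CPM in nonpeptidergic nociceptors, and with nociceptor markers as a covariate the call was lost (log2 fold change -1.11, adjusted p = 0.297).

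Among sodium and calcium channels, Scn9a and Cacna1h were higher in Field. Scn9a, the channel Nav1.7 that amplifies small depolarisations, stood at 312, 147 and 153 CPM in the SA1 libraries and 711, 619 and 340.4 CPM in the Field libraries (log2 fold change -1.45, SE 0.32, adjusted p = 0.0037). Its call was lost on the 6 libraries alone (adjusted p = 0.0583) and on log2(RPKM + 0.1) (adjusted p = 0.226). Cacna1h, the low-threshold T-type channel Cav3.2, stood at 3.50, 2.06 and 3.45 CPM in the SA1 libraries and 23.9, 12.1 and 14.2 CPM in the Field libraries (log2 fold change -2.48, SE 0.32, adjusted p = 1.69e-05). Scn8a and Scn1a, the sodium channels of fast myelinated axons, overlapped between the groups (log2 fold change 0.52, adjusted p = 0.136, and 0.44, adjusted p = 0.522). The pacemaker channel gene Hcn2 stayed under the minimum fold (log2 fold change 0.86, adjusted p = 0.0153), and Hcn4 was called higher in SA1 at a low level (5.97, 6.43 and 5.12 CPM against 2.33, 2.23 and 1.25 CPM, log2 fold change 1.62, SE 0.27, adjusted p = 0.000309), but not on the 6 libraries alone (adjusted p = 0.0857). Ano1, the calcium-activated chloride channel TMEM16A, was higher in SA1, at 44.9, 73.8 and 51.6 CPM against 8.45, 10.8 and 5.95 CPM (log2 fold change 2.77, SE 0.39, adjusted p = 3.83e-05), and so was Ttyh2, of the tweety family of membrane proteins (27.9, 38.8 and 22.7 CPM against 8.65, 4.97 and 6.34 CPM, log2 fold change 2.14, SE 0.39, adjusted p = 0.000632).

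**Figure D3:**
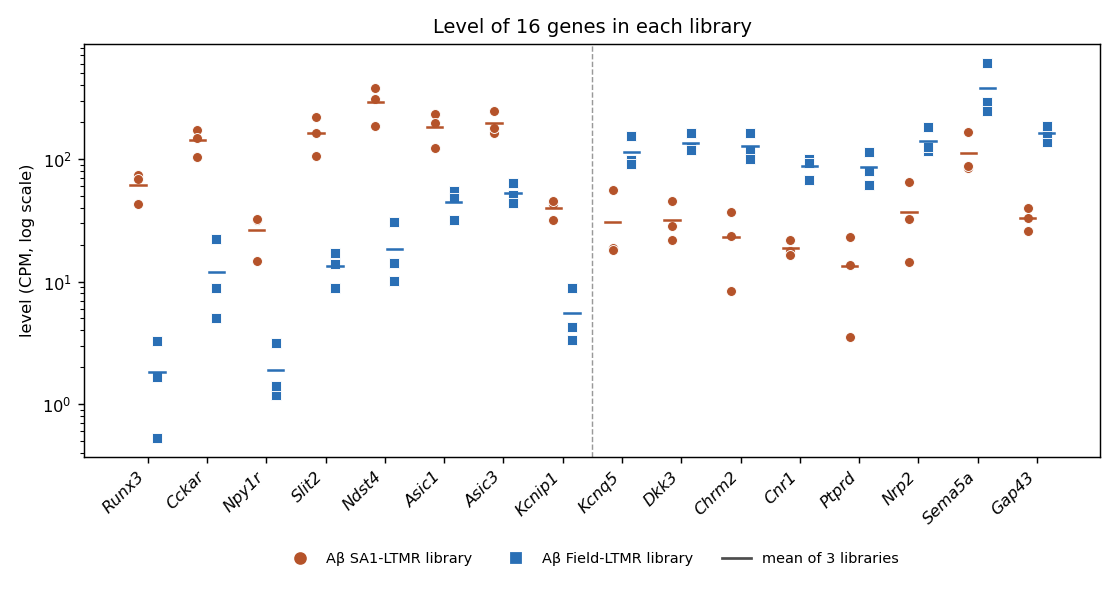
Level (CPM, log scale) of 16 genes in each of the 3 Aβ SA1-LTMR libraries (circles) and the 3 Aβ Field-LTMR libraries (squares), with the mean of each group as a bar. The 8 genes left of the dashed line were called higher in SA1 and the 8 right of it higher in Field, and the groups do not overlap in any of the 16.

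Peptide and hormone receptors leaned toward SA1: of 46 tested, 7 were called higher there and 1 in Field (median log2 fold change 0.15), where 3.21% and 5.66% of all genes were called. Among the 17 with at least 5 CPM, 4 were called higher in SA1 and 1 in Field, where 3.36% and 4.11% of all genes at that level were called. Cckar, a receptor of cholecystokinin, stood at 105, 173 and 149 CPM in the SA1 libraries and 8.81, 22.1 and 5.03 CPM in the Field libraries (log2 fold change 3.63, SE 0.41, adjusted p = 3.13e-06). Npy1r, an inhibitory receptor of neuropeptide Y, stood at 14.7, 31.6 and 32.1 CPM in the SA1 libraries and 1.18, 3.14 and 1.4 CPM in the Field libraries (log2 fold change 3.92, SE 0.45, adjusted p = 3.14e-06). Npy5r, another receptor of the same peptide, stood at 1.89, 4.59 and 2.50 CPM in SA1 and 0.0231, 0 and 0.0437 CPM in Field. This is a ratio of summed levels of 93.3 with a 95% counting interval of 31.7 to 454, on 3 counts in Field (adjusted p = 2.91e-05). These 2 genes lie head to head with starts 9.33 kb apart, and both were higher in SA1, Npy5r at a low level. Ntsr2, a neurotensin receptor, stood at 22.1, 34.9 and 33.8 CPM in the SA1 libraries and 4.73, 3.35 and 3.28 CPM in the Field libraries (log2 fold change 2.99, SE 0.47, adjusted p = 0.000145), and Vdr, a nuclear receptor for vitamin D, at 8.02, 10.4 and 10.1 CPM against 1.43, 1.42 and 1.51 CPM (log2 fold change 2.70, SE 0.61, adjusted p = 0.00444). Pth1r, the receptor of parathyroid hormone, stood at 14.9, 28.2 and 23.4 CPM against 0.854, 1.62 and 1.07 CPM (log2 fold change 4.33, SE 0.43, adjusted p = 9.95e-07).

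Several receptors of small transmitters were higher in Field. Of 39 serotonin, opioid, adrenergic, muscarinic, dopamine, histamine and cannabinoid receptors tested, 9 were called higher in Field and 2 in SA1 (median -0.95, or -0.88 with genes at 0 in a group taken at their bound of 3 counts). Many of these were near the floor, where genes in general were called toward Field. Among the 14 with at least 5 CPM, 3 were called higher in Field and 1 in SA1. Chrm2, the inhibitory muscarinic M2 receptor, stood at 37.1, 8.36 and 23.7 CPM in the SA1 libraries and 164, 117 and 100.3 CPM in the Field libraries (log2 fold change -2.46, SE 0.37, adjusted p = 8.59e-05). Cnr1, the cannabinoid CB1 receptor of axon terminals, stood at 17.9, 16.4 and 21.9 CPM in the SA1 libraries and 101, 93.0 and 67.3 CPM in the Field libraries (log2 fold change -2.21, SE 0.30, adjusted p = 2.8e-05). All 3 Field libraries exceeded all 3 SA1 libraries by more than 2 times in both genes. Htr2a, an excitatory serotonin receptor, stood at 3.30, 3.19 and 2.40 CPM against 19.6, 11.4 and 9.91 CPM (log2 fold change -2.21, SE 0.32, adjusted p = 6.83e-05), and Drd2, the inhibitory dopamine receptor, was higher in SA1 (10.8, 12.47 and 6.30 CPM against 0.738, 0.912 and 1.16 CPM, log2 fold change 3.39, SE 0.57, adjusted p = 0.00038). Ptgir, the prostacyclin receptor, stood at 23.8, 5.81 and 5.87 CPM against 102, 63.3 and 71.7 CPM (log2 fold change -2.74, SE 0.57, adjusted p = 0.00234). It stood at 106 CPM in peptidergic nociceptors, and its call was lost with nociceptor markers (adjusted p = 0.167) or read length (adjusted p = 0.12) as a covariate.

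Receptor channels for transmitters went both ways. Gabra4, the α4 subunit of GABA-A receptors, stood at 4.75, 12.1 and 5.12 CPM in the SA1 libraries and 0.346, 1.22 and 0.219 CPM in the Field libraries (log2 fold change 3.96, SE 0.58, adjusted p = 6.81e-05). Gabrb1, the β1 gene that overlaps Gabra4 on the other strand, was also called higher in SA1 at a low level (1.63, 2.70 and 5.69 CPM against 0.254, 0.710 and 0.241 CPM, log2 fold change 3.32, SE 0.59, adjusted p = 0.000604), except on the 6 libraries alone (adjusted p = 0.0583), and reads of these overlapping genes cannot be told apart without strand. Neto1, an auxiliary subunit of kainate receptors, stood at 8.66, 4.89 and 10.3 CPM in the SA1 libraries and 51.6, 44.2 and 36.0 CPM in the Field libraries (log2 fold change -2.46, SE 0.38, adjusted p = 0.000115). P2rx5, an ATP-gated channel subunit, was higher in SA1 (17.4, 13.2 and 18.6 CPM against 6.16, 4.46 and 7.20 CPM, log2 fold change 1.45, SE 0.24, adjusted p = 0.000269). P2rx3, the ATP-gated channel of nociceptors, was higher in Field (25.7, 20.7 and 15.1 CPM against 83.1, 58.1 and 57.4 CPM, log2 fold change -1.69, SE 0.35, adjusted p = 0.0021), at 447 CPM in nonpeptidergic nociceptors, and lost the call with nociceptor markers (adjusted p = 0.112) or read length (adjusted p = 0.26) as a covariate. P2rx3 is itself among those markers, so the first loss is partly built in.

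A secreted protease had the largest fold of the genes at 5 CPM or more. Pappa2 (chromosome 1, 158711727 to 158980490) encodes a secreted protease that cuts binding proteins of insulin-like growth factors and so frees them. It stood at 83.6, 142 and 108 CPM in the SA1 libraries and 0.785, 3.55 and 0.547 CPM in the Field libraries (log2 fold change 6.42, SE 1.16, adjusted p = 0.000916), and each SA1 library was more than 20 times above each Field library. With read length as a covariate its log2 fold change was 3.26 (adjusted p = 0.0875). In the same pathway Igfbp2, an insulin-like growth factor binding protein, was low and went the other way, with 0.244, 0 and 0 CPM in SA1 and 4.41, 3.65 and 3.52 CPM in Field (log2 fold change -5.43, SE 0.81, adjusted p = 8.47e-05). Inhbb, the βB subunit of activins, stood at 16.3, 7.31 and 11.96 CPM against 0.346, 1.52 and 0.678 CPM (log2 fold change 4.03, SE 0.79, adjusted p = 0.00146), and Smad9, an intracellular effector of BMP receptors, at 138, 179.6 and 176 CPM against 81.9, 63.3 and 58.9 CPM (log2 fold change 1.27, SE 0.15, adjusted p = 3.46e-06). Inhbb and Smad9 are in the BMP, TGF-beta and activin list. Of its 48 genes tested, 3 were called higher in SA1 and 3 in Field, where 3.21% and 5.66% of all genes were called.

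The secreted factors Dkk3 and Kitl were higher in Field. Dkk3, of the Dickkopf family, stood at 45.6, 21.9 and 28.7 CPM in the SA1 libraries and 164, 122 and 119 CPM in the Field libraries (log2 fold change -2.07, SE 0.24, adjusted p = 4.56e-06). Kitl, the ligand of the Kit receptor, stood at 72.7, 28.7 and 43.6 CPM in the SA1 libraries and 162, 209.9 and 132 CPM in the Field libraries (log2 fold change -1.79, SE 0.34, adjusted p = 0.00106). Of the neuropeptides, 3 of 30 tested were called higher in SA1 and 7 in Field, where 3.21% and 5.66% of all genes were called. Nts, neurotensin, rested on 2 libraries: it stood at 0.947, 34.4 and 74.0 CPM in the SA1 libraries and 2.56, 2.84 and 1.55 CPM in the Field libraries (log2 fold change 4.004, SE 0.88, adjusted p = 0.00373), so that SA1 library 1 lay under all Field libraries, and the 6 libraries alone gave adjusted p = 0.158. Calca, the CGRP gene of peptidergic nociceptors, stood at 104, 82.0 and 21.3 CPM against 188, 313 and 217 CPM (log2 fold change -1.79, SE 0.58, adjusted p = 0.046), where peptidergic nociceptors had 3556 CPM. The call was lost with nociceptor markers as a covariate (log2 fold change -0.32, adjusted p = 0.811), and also when any of the 3 Field libraries (adjusted p = 0.054, 0.134 and 0.0748) or SA1 library 2 (0.0844) or 3 (0.133) was left out. Calca is itself among those markers, so the loss under that covariate is partly built in.

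Of the neurotrophic factor receptors, 0 of 17 tested were called higher in SA1 and 4 in Field, where 3.21% and 5.66% of all genes were called. Gfra1, the GDNF coreceptor that partners Ret, stood at 177, 81.7 and 104 CPM in the SA1 libraries and 406, 194 and 306 CPM in the Field libraries (log2 fold change -1.32, SE 0.27, adjusted p = 0.00193). Every Field library was above every SA1 library, and the call was lost on the 6 libraries alone (adjusted p = 0.0644).

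Axon guidance genes differed in both directions. Slit2, a secreted repellent that acts through Robo receptors, stood at 106, 222 and 163 CPM in the SA1 libraries and 13.9, 17.1 and 8.92 CPM in the Field libraries (log2 fold change 3.64, SE 0.34, adjusted p = 3.43e-07), so that each SA1 library was more than 6 times above each Field library. Unc5b and Unc5a, repulsive netrin receptors, stood at 11.2, 12.7 and 18.3 CPM against 1.57, 1.42 and 1.62 CPM (log2 fold change 3.18, SE 0.31, adjusted p = 8.19e-07) and at 21.3, 21.7 and 25.8 CPM against 6.58, 4.66 and 6.21 CPM (log2 fold change 1.96, SE 0.29, adjusted p = 7.82e-05). Of 44 members of the ephrin, Slit, Robo and netrin families tested, 6 were called higher in SA1 and 4 in Field, where 3.21% and 5.66% of all genes were called.

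Of the 31 semaphorin, plexin and neuropilin genes tested, 5 were called toward SA1 and 4 toward Field, where 3.21% and 5.66% of all genes were called. Sema7a, a membrane-anchored semaphorin, stood at 73.1, 128 and 107 CPM in the SA1 libraries and 21.1, 24.4 and 24.4 CPM in the Field libraries (log2 fold change 2.14, SE 0.25, adjusted p = 3.34e-06). Sema3f, a secreted one, stood at 49.1, 56.5 and 47.6 CPM against 13.3, 8.52 and 13.3 CPM (log2 fold change 2.11, SE 0.27, adjusted p = 1.69e-05), and Plxna1, a plexin receptor, at 92.4, 145 and 105 CPM against 52.2, 26.6 and 29.5 CPM (log2 fold change 1.65, SE 0.24, adjusted p = 6.69e-05). Nrp2, the neuropilin that binds Sema3f, was higher in Field, at 64.6, 14.4 and 32.1 CPM in the SA1 libraries and 183, 117 and 125 CPM in the Field libraries (log2 fold change -1.93, SE 0.36, adjusted p = 0.000849). Sema5a, a transmembrane semaphorin, was also higher in Field, at 165, 84.6 and 87.6 CPM against 611, 291 and 247 CPM (log2 fold change -1.77, SE 0.32, adjusted p = 0.0007). Ligand Sema3f and receptor Nrp2 were thus higher in opposite groups.

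Adhesion molecules of synapses held calls in both directions as well. Ptprd, a receptor phosphatase that organises presynaptic terminals, stood at 23.1, 3.56 and 13.6 CPM in the SA1 libraries and 115, 79.4 and 61.8 CPM in the Field libraries (log2 fold change -2.67, SE 0.41, adjusted p = 0.000117). Igsf21, an immunoglobulin protein known as a partner of neurexins, stood at 45.9, 46.1 and 47.8 CPM in the SA1 libraries and 6.41, 4.56 and 11.4 CPM in the Field libraries (log2 fold change 2.62, SE 0.38, adjusted p = 6.74e-05). Of 79 synaptic organisers tested, 6 were called higher in SA1 and 5 in Field, where 3.21% and 5.66% of all genes were called. Among 32 cadherins and nonclustered protocadherins, 6 were called higher in SA1 and 0 in Field, and none of the 6 was called under all 14 treatments. Pcdh19, the most stable of them, stood at 32.1, 48.4 and 30.5 CPM against 19.8, 13.3 and 6.80 CPM (log2 fold change 1.48, SE 0.30, adjusted p = 0.00172), and lost the call only on the 6 libraries alone (adjusted p = 0.0623). Chl1, a neural adhesion molecule, was higher in Field (176, 51.2 and 86.8 CPM against 341, 334 and 271 CPM, log2 fold change -1.59, SE 0.37, adjusted p = 0.00534), though not with read length as a covariate (adjusted p = 0.0516) or on the 6 libraries alone (adjusted p = 0.0532).

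The enzymes Ndst4 and Hs3st2 were higher in SA1, and both modify heparan sulfate, whose sugar chains bind Slits and growth factors. Ndst4, an N-deacetylase and N-sulfotransferase, stood at 186, 381 and 308 CPM in the SA1 libraries and 14.3, 30.6 and 10.1 CPM in the Field libraries (log2 fold change 4.02, SE 0.38, adjusted p = 3.43e-07). Hs3st2, a 3-O-sulfotransferase, stood at 116, 165 and 142 CPM in the SA1 libraries and 30.1, 29.4 and 36.7 CPM in the Field libraries (log2 fold change 2.13, SE 0.32, adjusted p = 8.68e-05). In both genes each SA1 library was at least 3 times above each Field library. No list of such enzymes was tested, and Hs3st2 was chosen after its values were seen.

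Genes of calcium handling and second messengers followed. Pvalb, the calcium buffer parvalbumin, stood at 37.0, 52.3 and 70.1 CPM in the SA1 libraries and 5.49, 17.7 and 13.7 CPM in the Field libraries (log2 fold change 2.14, SE 0.41, adjusted p = 0.00106), against 281 CPM in proprioceptors. Vsnl1, a calcium sensor of the visinin family with the highest CPM, not corrected for length, of the core toward SA1, stood at 806, 960.0 and 1078 CPM in the SA1 libraries and 331, 359 and 471 CPM in the Field libraries (log2 fold change 1.29, SE 0.30, adjusted p = 0.00619). Gap43, the growth-associated protein of axon endings, was higher in Field, at 33.2, 25.8 and 39.95 CPM in the SA1 libraries and 138, 163 and 184 CPM in the Field libraries (log2 fold change -2.29, SE 0.32, adjusted p = 4.35e-05). Of 43 protein kinase C, cyclase and phosphodiesterase genes tested, 4 were called higher in SA1 and 10 in Field, where 3.21% and 5.66% of all genes were called. Prkcb, protein kinase Cβ, was higher in SA1 (48.6, 54.4 and 52.0 CPM against 19.1, 22.2 and 20.0 CPM, log2 fold change 1.34, SE 0.25, adjusted p = 0.000778). Prkcd and Prkca, its δ and α relatives, were higher in Field (13.7, 15.0 and 11.6 CPM against 60.2, 95.6 and 37.5 CPM, log2 fold change -2.25, SE 0.31, adjusted p = 3.71e-05, and 90.9, 90.1 and 49.6 CPM against 255, 251 and 146 CPM, log2 fold change -1.50, SE 0.24, adjusted p = 0.000236). Both are also abundant in nonpeptidergic nociceptors, at 703 and 1481 CPM. With nociceptor markers as a covariate both were still called, at smaller folds (log2 fold change -1.38, adjusted p = 0.00559, and -1.09, adjusted p = 0.0192). The part of nociceptor RNA in these levels was not tested.

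The genes of the core with the highest CPM were modest in fold. Toward SA1 they were, beside Vsnl1, Atp11a, a lipid flippase (756, 994 and 908 CPM against 393, 321 and 259 CPM, log2 fold change 1.45, SE 0.22, adjusted p = 9e-05), and Edil3, an integrin ligand of the matrix (459, 627 and 498 CPM against 209, 288 and 166 CPM, log2 fold change 1.26, SE 0.17, adjusted p = 2.62e-05). Sgpp2, a sphingosine-phosphate phosphatase, followed at 495, 534 and 449.6 CPM against 236, 209 and 232 CPM (log2 fold change 1.13, SE 0.14, adjusted p = 7.57e-06). Toward Field they were Ppp3ca, the catalytic subunit of calcineurin (510.0, 264 and 311 CPM against 873, 1209.7 and 805 CPM, log2 fold change -1.41, SE 0.29, adjusted p = 0.00182), and Cd24a, a surface glycoprotein (219, 149 and 166 CPM against 646, 967 and 679 CPM, log2 fold change -2.10, SE 0.27, adjusted p = 1.3e-05). Cd24a stood at 3475 CPM in nonpeptidergic nociceptors, and with nociceptor markers as a covariate its log2 fold change was -2.03 (adjusted p = 0.000584). The part of nociceptor RNA in the level of Cd24a was not tested. Dclk1, a microtubule-associated kinase (-1.59, adjusted p = 6.42e-05), and Thsd7a, a thrombospondin-domain membrane protein (-1.22, adjusted p = 0.00788), followed. Thsd7a and Vsnl1 lost the call with nociceptor markers as a covariate (log2 fold change -1.14 and 1.17). On log2(RPKM + 0.1), Ppp3ca (adjusted p = 0.318) and Thsd7a (0.342) missed the threshold. On the deposited rlog scale, which shrinks folds, Vsnl1, Edil3, Sgpp2, Smad9, Prkcb, Dpp6 and Thsd7a fell under the minimum fold.

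Beside Pappa2 and Runx3, the largest folds toward SA1 at 5 CPM or more were of low to moderate level. Cryba2, a crystallin better known from the lens, stood at 10.5, 9.02 and 12.9 CPM against 0.115, 0.710 and 0.306 CPM (log2 fold change 5.11, SE 0.79, adjusted p = 0.000119). Rcsd1, an actin capping regulator, stood at 18.9, 21.4 and 21.3 CPM against 0.369, 1.42 and 1.47 CPM (log2 fold change 4.31, SE 0.46, adjusted p = 1.63e-06), and Ly6e, a membrane-anchored Ly6 protein, at 28.7, 31.0 and 43.2 CPM against 1.59, 1.32 and 2.62 CPM (log2 fold change 4.16, SE 0.47, adjusted p = 3.14e-06). Hrk, a pro-apoptotic BH3 protein, was highest in SA1 libraries 2 and 3 (0.825, 9.77 and 7.94 CPM against 0.138, 0.101 and 0 CPM, log2 fold change 6.34, SE 1.15, adjusted p = 0.000667), and lost the call with read length as a covariate (log2 fold change 8.54, adjusted p = 0.053). Toward Field, Glyat, a glycine N-acyltransferase, stood at 0.214, 0.0643 and 0.525 CPM against 9.60, 5.88 and 4.59 CPM (log2 fold change -4.61, SE 0.81, adjusted p = 0.000527), Htra4, a secreted serine protease, at 1.27, 0.193 and 0.604 CPM against 12.7, 9.33 and 11.6 CPM (log2 fold change -4.01, SE 0.74, adjusted p = 0.000849), and Slc4a11, a membrane transporter, at 0.840, 0.3 and 0.907 CPM against 10.1, 6.29 and 4.40 CPM (log2 fold change -3.32, SE 0.38, adjusted p = 3.14e-06). Glyat and Htra4 had their highest mean of the 8 subtypes in Field. The mitochondrial gene mt-Nd6 was called on 1 library: it stood at 51.4, 55.6 and 55.8 CPM in the SA1 libraries and 188, 1532 and 149 CPM in the Field libraries (log2 fold change -3.52, SE 0.89, adjusted p = 0.0126), and without Field library 2 the log2 fold change was -1.64 (adjusted p = 0.174).

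Lists of energy metabolism and protein synthesis held calls in both directions. Of 75 nuclear oxidative phosphorylation genes tested, 1 was called higher in SA1 and 1 in Field (median log2 fold change 0.15). Of 79 cytosolic ribosomal protein genes, 5 were called higher in SA1 and 1 in Field (median 0.41), where 3.21% and 5.66% of all genes were called, and none of the ribosomal calls held under all 14 treatments. Of 33 glycolysis and TCA cycle genes, 1 was called each way. Aldoc, a glycolytic aldolase, was higher in SA1, at 133, 254 and 210.4 CPM in the SA1 libraries and 44.3, 59.2 and 40.4 CPM in the Field libraries (log2 fold change 2.06, SE 0.29, adjusted p = 4.57e-05). Hk2, a hexokinase, was called higher in Field at a low level, at 0.947, 0.107 and 0.239 CPM against 1.62, 2.43 and 2.27 CPM (log2 fold change -2.24, SE 0.50, adjusted p = 0.00444), and its call held under 12 of the 14 other treatments. Of 31 Hox genes, which mark the axial level of a ganglion, 1 was called higher in SA1 and 3 in Field. Hoxb5 stood at 31.2, 11.3 and 12.2 CPM against 45.5, 40.05 and 65.0 CPM (log2 fold change -1.46, SE 0.33, adjusted p = 0.00455), a call lost with read length as a covariate (adjusted p = 0.527) or on the 6 libraries alone (0.0818), and the mix of axial levels in the pools was not tested.

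**Figure D4:**
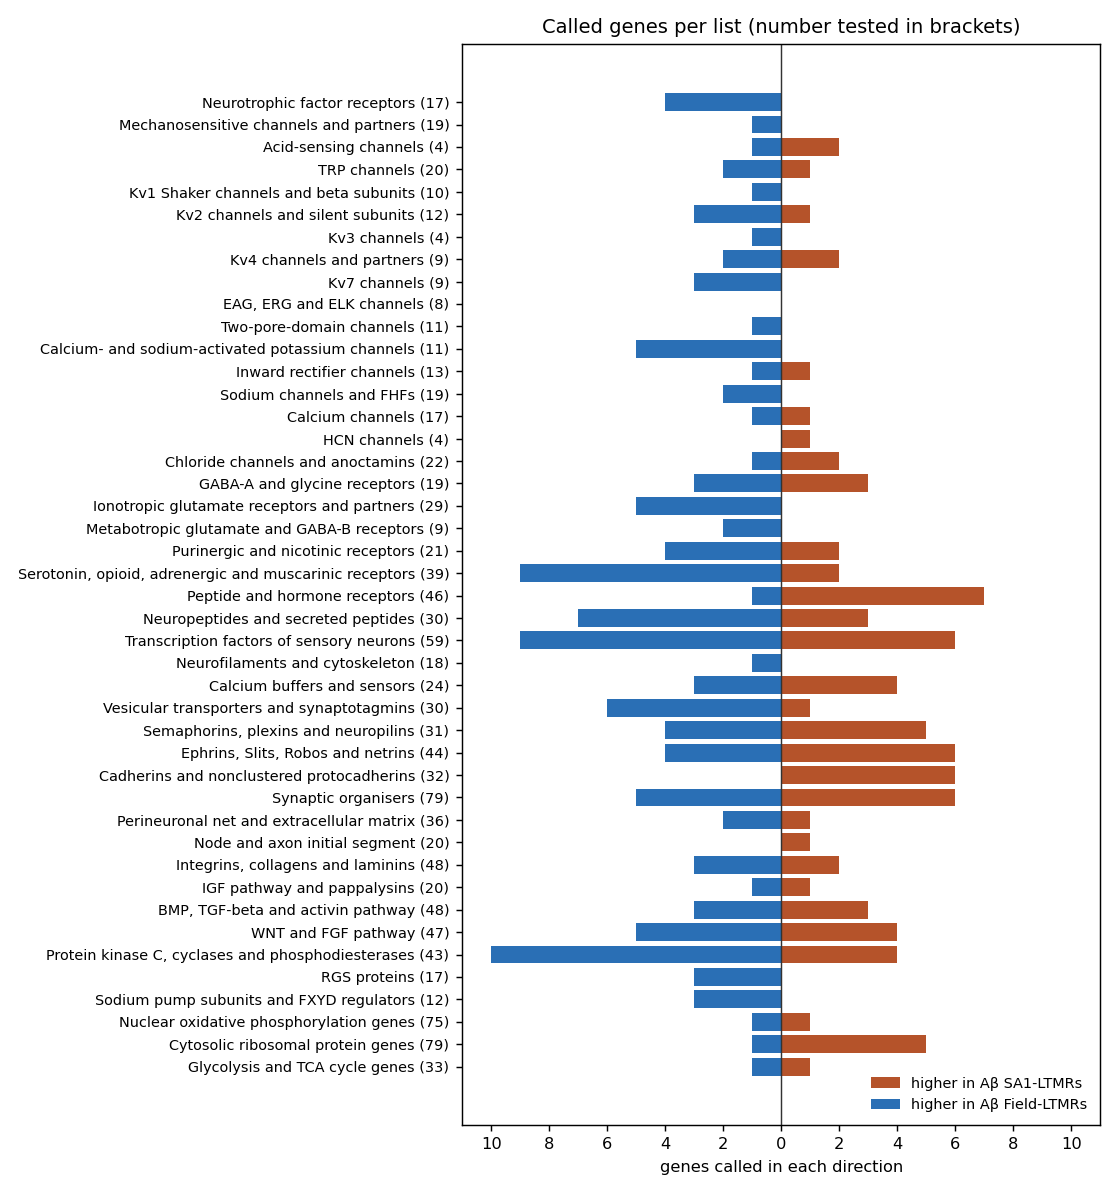
Number of genes called higher in Aβ SA1-LTMRs (right) and in Aβ Field-LTMRs (left) in each list of neuronal and metabolic genes, with the number tested in brackets. Peptide and hormone receptors and cadherins lean right, and small-transmitter receptors and calcium- and sodium-activated potassium channels lean left. Of all genes tested, 3.21% were called higher in SA1 and 5.66% in Field.

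The genes called in each direction were also placed among all 8 subtypes. This is a description of mean levels without a test, and the subtypes differ in label, tamoxifen and read length. The same shares over all genes were not computed. By selection, a gene called higher in SA1 cannot have its highest mean in Field, nor the reverse. Of the 332 more abundant genes called higher in SA1, 119 had their highest mean of the 8 subtypes in SA1 and 111 in proprioceptors (35.8% and 33.4%). Of the 406 called higher in Field, 97 had their highest mean in Field, 107 in nonpeptidergic nociceptors, 76 in peptidergic nociceptors and 60 in Aδ-LTMRs. A nociceptor subtype had a higher mean than Field for 234 of the 406, at least 10 times higher for 34, and both nociceptor subtypes lay below Field for the other 172. Of the 332 higher in SA1, a nociceptor subtype had the higher mean for 71, and none was 10 times higher.

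Runx3 stood at a mean of 61.9 ± 16.7 CPM (SD, n = 3) in SA1 and 76.4 ± 4.86 CPM in proprioceptors, and at 2.12 CPM or less in the other 6 subtypes. Slit2 stood at 203 ± 8.32 CPM in proprioceptors, 164 ± 57.9 CPM in SA1 and 96.4 ± 29.3 CPM in Aβ RA-LTMRs (n = 5), the rapidly adapting touch neurons. Asic1, Ano1, Ndst4 and Pvalb had their 2 highest means in proprioceptors and SA1 as well. Ntsr2, in contrast, reached 30.3 ± 7.13 CPM in SA1 and 5.28 CPM or less elsewhere, and Vdr 9.50 ± 1.29 CPM in SA1 and 1.45 CPM or less elsewhere. Asic3 was highest in SA1 too, at 197 ± 45.04 CPM, with Aβ RA-LTMRs next at 79.4 ± 18.6 CPM. Chrm2 stood at 127 ± 32.9 CPM in Field and 36.7 ± 5.01 CPM in peptidergic nociceptors, the next highest. Gap43 and Trpa1, by contrast, were higher in nociceptors than in Field, at 372 CPM in the peptidergic and 196 CPM in the nonpeptidergic subtype.

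**Figure D5:**
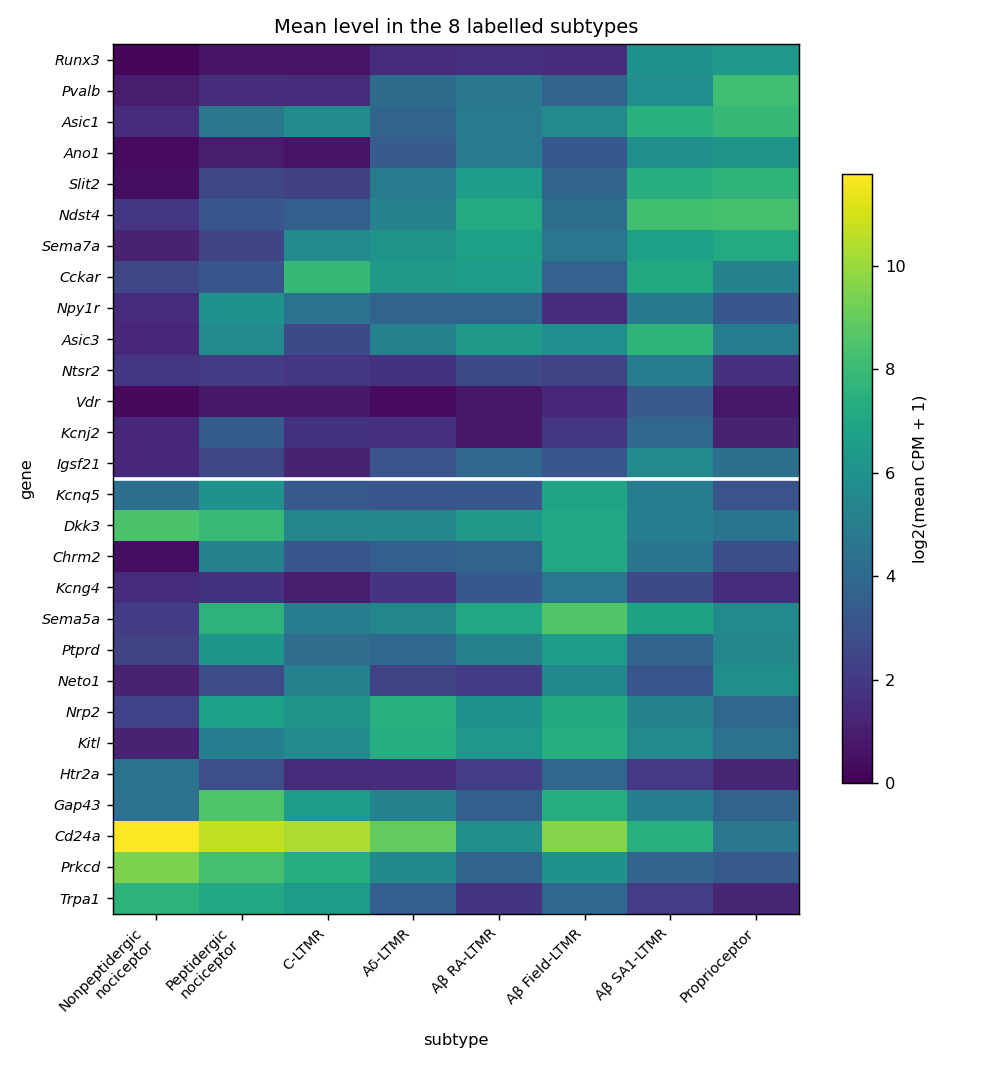
Mean level, as log2(mean CPM + 1), of 14 genes called higher in Aβ SA1-LTMRs (above the white line) and 14 called higher in Aβ Field-LTMRs (below it) in all 8 subtypes. Runx3, Pvalb, Asic1 and Ano1 are shared with proprioceptors, Ntsr2 and Vdr stand highest in Aβ SA1-LTMRs, Kcnq5 and Chrm2 stand highest in Aβ Field-LTMRs, and Prkcd and Trpa1 are higher in nociceptors.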

How the data were processed

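RNA was measured in 26 libraries of sorted dorsal root ganglion neurons of 8 subtypes, of which the 3 Aβ SA1-LTMR and 3 Aβ Field-LTMR libraries are compared here. The deposited tables hold raw counts per gene, RPKM (reads scaled to gene length and depth) and rlog values, which are regularised log2 counts. The deposited alignment summary gives read counts, shares as a fraction (printed as percent here), percent GC, and a ratio for bias between transcript ends, the direction of which is not given in the sources used here. STAR, HTSeq 0.6.1, DESeq2 1.14.1, Cuffdiff, FastQC 0.11.3 and build mm10 are named without roles, per the submitters' processing notes. RNA was amplified after sorting, per the labels' protocols, and counts carry no molecular identifiers, so counting intervals cover counting error only.

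The deposited counts were tested with edgeR 4.0.16 in R 4.3.3 (filterByExpr, TMM, robust quasi-likelihood fit of 8 groups) on all 26 libraries, with Benjamini-Hochberg adjustment over all genes. Standard errors (SE) are the size of the fold change over the square root of the F statistic. Alternatives used DESeq2 1.42.0, limma 3.58.1 on RPKM and rlog values, covariates, other filters and 1 library left out. The fit was tested on simulated data. Tables and figures used Python 3.11.15, NumPy 2.4.6, pandas 2.3.3 and matplotlib 3.10.9. Gene positions are those of GENCODE mouse release 21, and promoters those of RefSeq on GRCm38.p6.

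The members, gene lists and tests were chosen with earlier results of these data known. Named were Ntrk3 and Ret, in each direction the 10 largest folds without overlap at 5 CPM or more with over 3 counts in the lower group, the 6 with the highest CPM of the stable calls, and, of each of 64 lists, the 3 largest called folds each way and the 2 members highest in RPKM. Chrm2, Cnr1, Etv5, Hs3st2, Htr2a, Isl1, Kcna2, Kcnmb1, Kcnq3, Kitl, Maf, Mrgprd, Neto1, Ntsr2, Pcdh19, Plxna1, Prdm12, Prkcb, Ptgir, Scn8a, Slc17a6, Unc5a, Vdr, Whrn and Xist were named outside this rule, after their values were seen. Some genes that the rule names are not reported here.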

Additional observations from a re-analysis of the deposited data

How the results depend on the processing

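The calls depended most on which libraries were fitted, on the scale and on the fold minimum. The cause was not tested. Where all libraries gave 559 genes higher in SA1 and 986 higher in Field, the 6 libraries alone gave 199 and 139. That fit had fewer libraries to estimate the spread, redid the filter and scaling, and tested 14541 genes against 17411. The part of each was not tested. A fit with the replicate block on these 6 libraries gave 200 and 194. Deviations of same-numbered libraries correlated at -0.040, 0.028 and 0.019, within the range of -0.115 to 0.090 of libraries of other numbers. Whether the numbers pair the libraries was not tested further. Under the replicate block the sign turned for Ntrk3 (0.10) and Xist (-1.09). On rlog values 372 and 816 genes were called, on log2(RPKM + 0.1) 831 and 562, and on log2(RPKM + 1) 432 and 201. Without a fold minimum 889 genes were higher in SA1, with a log2 minimum of 2 the counts were 263 and 567, and with nociceptor markers as a covariate 405 and 549. Read length as a covariate gave 708 and 937. Leaving out 1 library at a time gave 426 to 697 and 722 to 1096.

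Among genes of at least 5 CPM, where 332 and 406 were called, the 6 libraries alone gave 183 and 114, the replicate block 189 and 179, rlog values 187 and 239, log2(RPKM + 0.1) 568 and 242, a log2 minimum of 2 98 and 70, and no fold minimum 659 and 760. Read length as a covariate gave 538 toward SA1 and 591 toward Field, more than without it in both directions. No normalization factors gave 258 toward Field and log2(RPKM + 1) 162 toward Field. Leaving out 1 library at a time gave 300 to 378 and 289 to 489, with the lowest counts without Field library 2. Of the listed genes, 89 and 140 were called. The 6 libraries alone gave 42 and 38, the replicate block 44 and 58, and a log2 minimum of 2 45 and 72. Toward Field, nociceptor markers as a covariate gave 78, log2(RPKM + 0.1) 81 and log2(RPKM + 1) 44. Leaving out 1 library at a time gave 70 to 107 and 102 to 159.

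Of the 113 genes named, 43 kept direction and call under every alternative. Apart from Kcnmb1, each gene whose sign turned was not called with all libraries. The log2 fold change turned its sign for Ntrk3 (0.17) and Whrn (0.066) without normalization factors; Ntrk3 (0.017) without a filter on low counts; Ntrk3 (0.030) on the 6 libraries alone. It also turned for Kcna1 (-0.47), Kcnmb1 (0.063), Kcnq3 (-0.21) and Mrgprd (0.21) with read length as a covariate; Kcna1 (-0.016), Kcnq3 (-0.26) and Whrn (0.11) with satellite glia as a covariate; Kcna1 (-0.040), Kcnq3 (-0.20), Ntrk3 (0.13) and Whrn (0.16) with nociceptor markers as a covariate. It turned as well for Ntrk3 (0.0006) with DESeq2; Maf (0.31), Ntrk3 (0.092), Piezo2 (0.066), Slc17a6 (0.42) and Xist (-0.067) on log2(RPKM + 0.1); Maf (0.28), Ntrk3 (0.090), Piezo2 (0.065) and Slc17a6 (0.41) on log2(RPKM + 1); Ntrk3 (0.058) and Xist (-0.63) on rlog values. Leaving out 1 library at a time turned the sign of 6 of the uncalled genes, whose values then ran -0.14 to 0.31 for Kcna1, -0.41 to 0.31 for Kcnq3, -0.069 to 0.24 for Nefh, -0.22 to 0.43 for Ntrk3, -1.29 to 0.63 for Whrn and -0.60 to 0.76 for Xist. Depth limited the smallest levels: Field library 2, at 10706522 counts, had a floor of 3 counts at a higher level than the other libraries.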
